A study of Homo sapiens with 39 samples.

Results

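The genes described here are 10 whose proteins are stored in the secondary (specific) and tertiary (gelatinase) granules of neutrophils: LTF, TCN1, CHI3L1, ORM1, ARG1, LRG1, CAMP, LCN2, MMP8 and MMP9. They were taken as a named list out of the 18132 genes that the array measured, and each was read from the probe sets whose platform annotation names only that symbol. Where a gene had several such probe sets, the one with the highest mean over all 39 arrays stood for it.

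The arrays (Affymetrix PrimeView) measured mRNA in 7 human acute myeloid leukemia cell lines exposed for 24 h to tamibarotene (SY-1425), a synthetic retinoid that activates the receptor RARA, or to its DMSO vehicle. The labels give an addition of 100 nM tamibarotene for a final 50 nM. MV-4-11 and NOMO-1 carry KMT2A fusions, OCI-AML3 carries mutant NPM1, Sig-M5 is a monocytic line, Kasumi-1 carries the RUNX1-RUNX1T1 fusion, KG-1a is an immature line and OCI-M1 is an erythroleukemia line. Each line had 3 tamibarotene arrays, and vehicle was run on 2 arrays in Sig-M5, Kasumi-1 and KG-1a and on 3 in the other lines. The labels do not say whether replicates were separate cultures, so the p-values measure only the spread between these arrays, which may be technical.

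Neutrophil granules are filled in the order in which their genes are switched on during maturation. Primary granule proteins such as myeloperoxidase are made by promyelocytes, the secondary granule proteins by myelocytes and metamyelocytes, and the gelatinase of tertiary granules by band cells. Transcription of the secondary granule genes depends on the factor C/EBP epsilon, whose gene is a retinoic acid target, and these genes are commonly used as markers of late granulocytic maturation in leukemia cells. They are not all specific to neutrophils: CHI3L1 is also made by macrophages, ORM1 and LRG1 are liver acute-phase proteins, ARG1 is the hepatic urea cycle enzyme, and MMP9 and LCN2 are made by many cell types.

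The promoters of CHI3L1, LRG1, ORM1 and TCN1 are shown because CHI3L1 and LRG1 rose in the most lines, ORM1 rose in Sig-M5 only, and TCN1 fell. Each is the stretch of 250 bases before the start of the gene in RefSeq (GRCh38.p14), written 5′ to 3′ on the gene's own strand. Capitals mark, on either strand, a retinoid receptor half-site (AGGTCA being the consensus, with AGTTCA as a variant, GGGTCA as another variant and GGTTCA as the last variant), a C/EBP core (TTGCNNAA) or a PU.1 core (GAGGAA). CHI3L1 lies at chr1:203186705-203186954 (minus strand), LRG1 at chr19:4540037-4540286 (minus), ORM1 at chr9:114322848-114323097 (plus) and TCN1 at chr11:59866488-59866737 (minus).
CHI3L1: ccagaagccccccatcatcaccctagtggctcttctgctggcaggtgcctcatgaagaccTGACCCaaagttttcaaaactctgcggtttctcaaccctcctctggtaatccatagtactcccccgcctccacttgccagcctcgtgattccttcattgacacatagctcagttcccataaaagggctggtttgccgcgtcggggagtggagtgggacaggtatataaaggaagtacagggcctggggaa
LRG1: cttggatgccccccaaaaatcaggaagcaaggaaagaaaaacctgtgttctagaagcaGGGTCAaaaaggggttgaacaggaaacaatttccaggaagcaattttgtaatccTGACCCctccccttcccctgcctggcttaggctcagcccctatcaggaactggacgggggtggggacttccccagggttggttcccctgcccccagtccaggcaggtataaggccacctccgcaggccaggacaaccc
ORM1: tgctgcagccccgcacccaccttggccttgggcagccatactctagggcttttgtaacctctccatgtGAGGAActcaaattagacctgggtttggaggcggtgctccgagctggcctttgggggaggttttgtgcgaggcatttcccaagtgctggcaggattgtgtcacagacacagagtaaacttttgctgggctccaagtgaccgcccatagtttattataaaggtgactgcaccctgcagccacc
TCN1: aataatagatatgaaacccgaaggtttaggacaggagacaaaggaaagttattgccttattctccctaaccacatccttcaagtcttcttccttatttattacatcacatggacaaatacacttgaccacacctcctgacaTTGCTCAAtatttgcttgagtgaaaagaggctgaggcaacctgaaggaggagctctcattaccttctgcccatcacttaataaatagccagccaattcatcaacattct

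The marked words in CHI3L1 and LRG1 are half-sites, 1 in CHI3L1 and 2 in LRG1, all with the letters GGGTCA. The sequence table held promoters of 9 of the 10 genes, MMP9 being the other, and 11 promoters in all because LTF had 3. A half-site was present in 2 of these 9 genes, and in 33.8% of the 35116 promoters of the table, so that the share here was not above the background. The word marked in TCN1 is a C/EBP core, which 4 of the 11 promoters held (TCN1, LCN2, MMP8 and 1 of LTF) against 9.05% of all promoters. The word marked in ORM1 is a PU.1 core, present in 6 of the 11 (the 3 of LTF, ORM1, CAMP and MMP8) against 23.6%. No word overlapped another. A match is a description of the letters and not a binding site.

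The deposited values are log2 intensities, and a level is compared only between arrays of the same probe set. The files hold no detection calls. For scale, the median of all probe sets of single genes was 5.11, and 4 members (ARG1, LCN2, MMP8 and MMP9) had every group mean below it. Array medians lay between 5.01 and 5.17. RNA integrity, read as the 3' minus 5' log2 difference of the beta-actin control probe sets, which grows as RNA breaks down, was lowest in Sig-M5 vehicle replicate 2 (1.89), Kasumi-1 vehicle replicate 2 (1.18) and Sig-M5 vehicle replicate 1 (0.81), against -0.02 to 0.56 on the other 36 arrays. The lines differed in lineage markers: the vehicle mean of MPO was 13.9 in Sig-M5, 13.8 in Kasumi-1 and 12.9 in NOMO-1 but 4.03 in OCI-M1, LYZ was at 12.2 or above in MV-4-11, NOMO-1, OCI-AML3 and Sig-M5, and the erythroid factor KLF1 was at 11.3 in OCI-M1. The T cell gene CD3D was at 12.3 in KG-1a and between 3.22 and 3.59 in the other lines. The T cell genes CD3E, CD2 and CD5 did not follow it: they stood at 4.58, 4.52 and 3.95 in KG-1a, close to their levels in the other lines. The neutrophil surface gene FCGR3B was dim in every group, between 3.17 and 3.42. Other neutrophil markers were mixed: CXCR1, MME and FPR1 lay under 5.11 in every group, and ALPL between 4.69 and 5.13 in vehicle. CSF3R had vehicle means from 6.20 in OCI-M1 to 9.38 in Kasumi-1, and in NOMO-1 CXCR2 was at 8.83 and S100A12 at 10.2.

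Without drug, CHI3L1 had the widest span of levels over the lines among the members. Its vehicle mean was 8.86 in NOMO-1, 8.47 in MV-4-11, 8.08 in OCI-AML3, 7.66 in Sig-M5 and 7.39 in KG-1a, and 3.12 in both Kasumi-1 and OCI-M1. Between neighbours in this order, only the step from KG-1a down to Kasumi-1 passed the test (4.27 ± 0.21, standard error (SE) of the fit, adjusted p = 2.4e-17, limma), so the lines fell into 5 with the transcript at a high level and 2 at a low level. Among the 5, some steps passed with single arrays left out: Sig-M5 to KG-1a was 0.66 without Sig-M5 vehicle replicate 2, OCI-AML3 to Sig-M5 was 0.81 without Sig-M5 vehicle replicate 1 and 0.51 without OCI-AML3 vehicle replicate 3, and NOMO-1 to MV-4-11 was 0.48 without NOMO-1 vehicle replicate 3. Over all 21 pairs of lines, CHI3L1 passed in 16, LRG1 and TCN1 in 17 each, MMP9 in 13, ORM1 in 11, LTF in 9, CAMP in 8, LCN2 and MMP8 in 6 each and ARG1 in 0 (lowest adjusted p = 0.0795, with 1 pair under 0.05 before adjustment). Of all genes and pairs, 43.4% passed.

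LRG1 in vehicle ran from 9.59 in NOMO-1 through 8.36 in OCI-M1, 7.55 in MV-4-11, 7.52 in Kasumi-1 and 7.36 in OCI-AML3 to 5.88 in Sig-M5 and 5.77 in KG-1a. The steps from NOMO-1 to OCI-M1, from OCI-M1 to MV-4-11 and from OCI-AML3 to Sig-M5 passed the test. The steps among MV-4-11, Kasumi-1 and OCI-AML3 and from Sig-M5 to KG-1a lay within the spread. TCN1 stood at 6.92 in OCI-AML3 and 6.75 in OCI-M1, a step that did not pass, then at 5.31 in Sig-M5, and lower in the other 4 lines, where single vehicle arrays read 3.09 to 4.10. Both steps around Sig-M5 passed, with differences of 1.44 and 1.31.

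ORM1 was at 7.59 in NOMO-1 and 6.81 in Sig-M5, and between 3.84 and 4.05 in the 5 other lines. CAMP was at 7.003 in NOMO-1 and between 4.83 and 5.23 elsewhere, a step of 1.77 ± 0.15 (SE). LCN2 was at 4.43 in OCI-M1 and between 3.45 and 3.72 elsewhere. The vehicle levels thus put no line highest for every gene: NOMO-1 led for CHI3L1, LRG1, ORM1, CAMP and MMP8, OCI-AML3 for TCN1 and MMP9, OCI-M1 for ARG1 and LCN2, and Sig-M5 for LTF, in some of these by less than the spread. LTF (3.24 to 3.85), ARG1 (2.59 to 2.84) and MMP8 (2.91 to 3.52) were dim in all 7 lines.

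**Figure D1:**
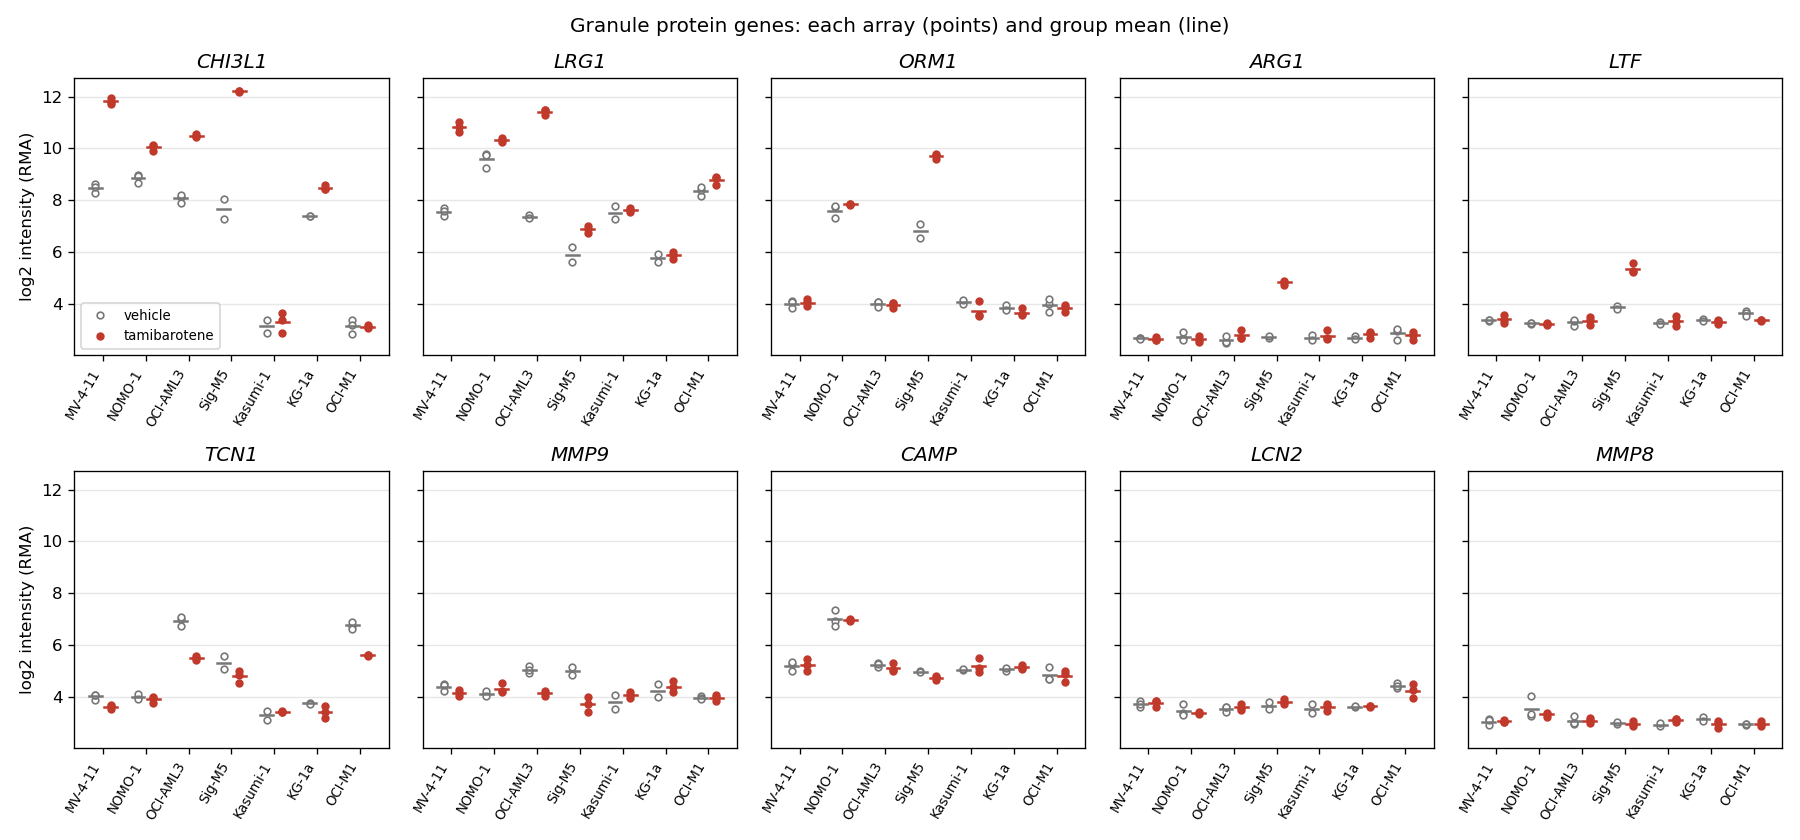
Log2 intensity (vertical axis, RMA) of the 10 granule protein genes in the 7 cell lines (horizontal axis), with vehicle arrays as open grey circles, tamibarotene arrays as filled red circles and group means as short lines. By the test, CHI3L1 and LRG1 are higher with tamibarotene in several lines, and ORM1, ARG1 and LTF only in Sig-M5. TCN1 and MMP9 are lower with tamibarotene in OCI-AML3 and Sig-M5, and TCN1 also in OCI-M1.

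With tamibarotene, the 10 genes did not move as a group. CHI3L1 rose in 5 lines and LRG1 in 4. ORM1, ARG1 and LTF rose in Sig-M5 only. TCN1 fell in 3 lines and MMP9 in 2, while CAMP, LCN2 and MMP8 passed the test in no line. A change is the tamibarotene mean minus the vehicle mean on the log2 scale, and passed where the limma p-value, adjusted by Benjamini-Hochberg over all 18132 genes, was under 0.05. In these bulk samples, a change in the share of cells that make a transcript and a change in the amount per cell cannot be told apart.

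**Figure D2:**
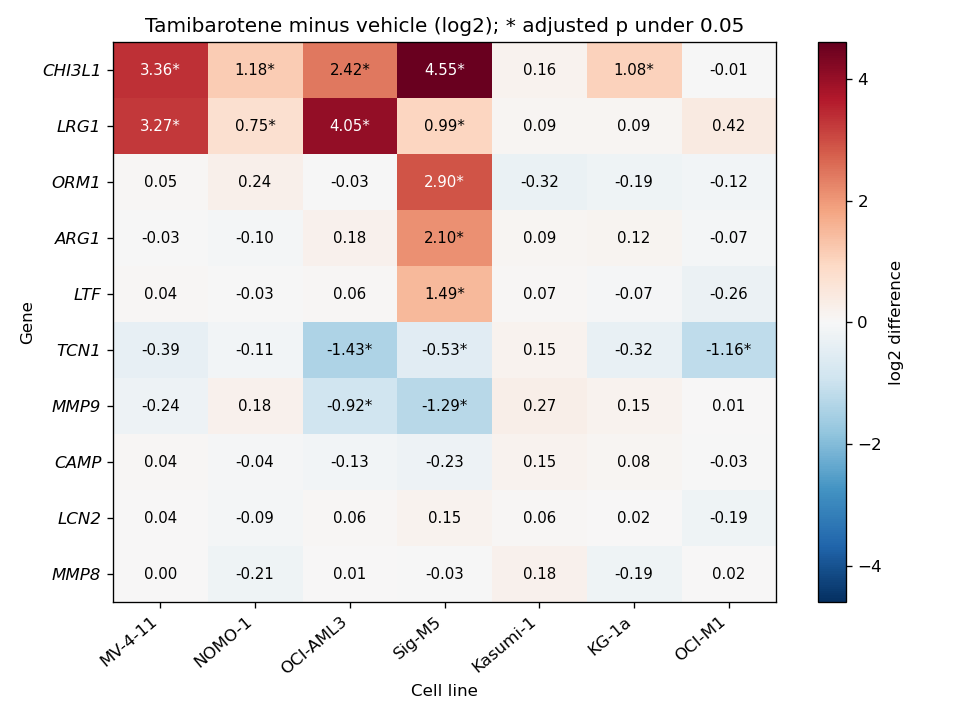
Tamibarotene minus vehicle (log2) for each gene (vertical axis) and line (horizontal axis), with red for higher and blue for lower and an asterisk where the adjusted p was under 0.05. Of 70 cells, 17 passed, between -1.43 (TCN1 in OCI-AML3) and 4.55 (CHI3L1 in Sig-M5).

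CHI3L1 encodes chitinase-3-like protein 1 (YKL-40), a chitin-binding lectin without enzyme activity that is stored in specific granules and secreted by macrophages. In Sig-M5 the vehicle arrays read 8.05 and 7.27 and the tamibarotene arrays 12.19, 12.21 and 12.22. The change was 4.55 ± 0.19 (SE), a 23.4-fold rise (adjusted p = 8.77e-18, limma). It was 4.94 without vehicle replicate 1 and 4.16 without replicate 2, the array with the highest actin difference. In MV-4-11 the gene went from 8.61, 8.29 and 8.50 to 11.74, 11.79 and 11.94, a change of 3.36 ± 0.17 or 10.2-fold (adjusted p = 4.62e-16). In OCI-AML3 it went from 8.13, 8.20 and 7.91 to 10.49, 10.56 and 10.45, a change of 2.42 ± 0.17 or 5.34-fold (adjusted p = 1.66e-12). The treated arrays of these 3 lines all lay more than 2 log2 units above the highest vehicle array.

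The rises of CHI3L1 in NOMO-1 and KG-1a were smaller. NOMO-1 vehicle arrays read 8.98, 8.92 and 8.68 and tamibarotene arrays 10.10, 10.14 and 9.90, a change of 1.18 ± 0.17 (adjusted p = 1.53e-05). KG-1a vehicle arrays read 7.39 and 7.39 and tamibarotene arrays 8.41, 8.42 and 8.57, a change of 1.08 ± 0.19 (adjusted p = 0.00034). In both lines the groups did not overlap. Kasumi-1 (vehicle 2.88 and 3.36, tamibarotene 3.38, 3.63 and 2.85) and OCI-M1 (vehicle 3.35, 3.18 and 2.81, tamibarotene 3.04, 3.10 and 3.19) overlapped between the arms, with changes of 0.16 (95% interval -0.22 to 0.55) and -0.01 (-0.35 to 0.34). The 5 lines that rose were those with a high vehicle level, but the size of the rise did not follow that level: the rise was largest in Sig-M5, the fourth of the 7 lines in vehicle, and NOMO-1, the first, had the fourth largest rise.

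LRG1 encodes leucine-rich alpha-2-glycoprotein, a secreted protein that binds cytochrome c and modulates TGF-beta signaling. In OCI-AML3 its vehicle arrays read 7.36, 7.41 and 7.32 and its tamibarotene arrays 11.29, 11.47 and 11.48. This was a change of 4.05 ± 0.15 (SE), or 16.6-fold (adjusted p = 3.82e-19, limma). In MV-4-11 the arrays went from 7.69, 7.39 and 7.58 to 10.81, 11.01 and 10.64, a change of 3.27 ± 0.15 or 9.63-fold (adjusted p = 5.11e-17). LRG1 and CHI3L1 therefore both rose strongly in these 2 lines, LRG1 more than CHI3L1 in OCI-AML3.

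In Sig-M5, where the CHI3L1 rise was largest, LRG1 went only from 5.60 and 6.17 to 7.01, 6.73 and 6.87. The change was 0.99 ± 0.17 (adjusted p = 3.64e-05), and it was 1.56 with the actin difference as a covariate. In NOMO-1, which already had the highest vehicle level, LRG1 went from 9.78, 9.74 and 9.24 to 10.41, 10.24 and 10.34. This change of 0.75 ± 0.15 (adjusted p = 0.00187) no longer passed when the line's arrays were fitted alone (adjusted p = 0.0914), although the arrays did not overlap. The second LRG1 probe set did not pass in NOMO-1, with a change of 0.35 (adjusted p = 0.428). OCI-M1 arrays did not overlap either (vehicle 8.15, 8.41 and 8.52, tamibarotene 8.89, 8.86 and 8.59), but the change of 0.42 (95% interval 0.12 to 0.73 before adjustment) did not pass (adjusted p = 0.308). It passed with the mean of both LRG1 probe sets (0.61) and with the actin covariate (0.55). By the second probe set alone, OCI-M1 also passed, with a change of 0.80 (adjusted p = 0.019, limma). In Kasumi-1 and KG-1a the change of the main probe set was 0.09 in each, with intervals from -0.25 to 0.43. By the second probe set, Kasumi-1 arrays did not overlap, and the change of 0.60 (interval 0.18 to 1.01) did not pass (adjusted p = 0.101, limma). In KG-1a that probe set changed by 0.23 (adjusted p = 0.83), so that KG-1a raised CHI3L1 without a detected change of LRG1.

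ORM1 encodes alpha-1-acid glycoprotein 1 (orosomucoid), an acute-phase plasma protein of the lipocalin family that is also stored in specific granules. In Sig-M5 its vehicle arrays read 6.53 and 7.09 and its tamibarotene arrays 9.78, 9.76 and 9.58. The change was 2.90 ± 0.17 (SE), or 7.46-fold (adjusted p = 3.1e-14, limma). It was 3.18 without vehicle replicate 2. NOMO-1, the line with the highest vehicle level, read 7.74, 7.76 and 7.29 in vehicle and 7.81, 7.86 and 7.84 with tamibarotene. These arrays did not overlap, but the change of 0.24 (interval -0.06 to 0.55) did not pass. In the other 5 lines all arrays lay between 3.53 and 4.17, with changes between -0.32 and 0.05.

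ORM1 has a near-identical neighbour, ORM2, and the probe sets cannot fully separate the pair. Of the 5 probe sets that name ORM1 only, 3 rose in Sig-M5, by 2.90, 3.38 and 2.84, and in no other line. The other two had group means between 2.31 and 3.47 and passed in no line. Averaging all 5 lowered the Sig-M5 change to 1.80, still past the test (adjusted p at most 7.28e-07 over all alternatives). The 1 probe set that names both ORM1 and ORM2 went from 6.61 to 9.95 in Sig-M5, a change of 3.34, and stood at 8.83 and 8.89 in the vehicle and tamibarotene arms of NOMO-1. The main probe set of ORM2 itself went from 4.33 to 7.39 in Sig-M5, a change of 3.07 ± 0.13 (adjusted p = 3.36e-17).

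LTF encodes lactoferrin, the iron-binding protein that is the classical marker of specific granules. It was dim in vehicle, and in Sig-M5 the arrays went from 3.90 and 3.80 to 5.22, 5.24 and 5.55. The change was 1.49 ± 0.11 (SE), or 2.81-fold (adjusted p = 5.55e-12, limma). All 3 treated Sig-M5 arrays lay above the median of all probe sets, and above every LTF value of the 34 arrays of other lines, the highest of which was 3.72. The second LTF probe set also rose in Sig-M5 only, from 3.75 to 4.43 (0.68, adjusted p = 0.000255). In the other 6 lines the changes of the main probe set lay between -0.26 and 0.07. The lowest was OCI-M1, where the arrays did not overlap (3.72, 3.62 and 3.52 in vehicle, 3.36, 3.34 and 3.38 with tamibarotene) but the change did not pass (adjusted p = 0.369).

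CAMP, the precursor of the antimicrobial peptide LL-37, and LCN2, a lipocalin that binds bacterial siderophores, passed in no line. In NOMO-1, where CAMP was highest, the arrays read 6.94, 7.33 and 6.74 in vehicle and 6.92, 6.98 and 6.98 with tamibarotene. This was a change of -0.04 (interval -0.34 to 0.26), so the groups overlapped. In OCI-M1, where LCN2 was highest, the arrays read 4.34, 4.51 and 4.42 against 4.48, 4.27 and 3.95, a change of -0.19 (interval -0.44 to 0.06). Over CAMP, LCN2 and MMP8 in all 7 lines, the 21 changes lay between -0.23 and 0.18 and their 95% intervals between -0.56 and 0.49. Before adjustment, too, 0 of the 21 had a limma p under 0.05. In Sig-M5, where LTF rose, the CAMP change was -0.23, with vehicle arrays at 4.98 and 4.93 and tamibarotene arrays at 4.75, 4.80 and 4.65 (adjusted p = 0.347).

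TCN1 encodes haptocorrin (transcobalamin 1), the vitamin B12 carrier of specific granules, and it was the member that fell in the most lines. In OCI-AML3 the arrays went from 6.99, 7.06 and 6.72 to 5.58, 5.40 and 5.50. The change was -1.43 ± 0.13 (SE), or 2.69-fold lower (adjusted p = 6.77e-10, limma). In OCI-M1 they went from 6.73, 6.63 and 6.90 to 5.58, 5.60 and 5.60, a change of -1.16 ± 0.13 or 2.23-fold lower (adjusted p = 5.59e-07). The groups did not overlap in either line, and these were the 2 lines with the highest vehicle level.

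In Sig-M5, next in vehicle level, TCN1 went from 5.58 and 5.05 to 4.98, 4.54 and 4.84. The change of -0.53 ± 0.14 passed (adjusted p = 0.00608, limma), but it rested on single arrays: it was -0.27 without vehicle replicate 1 (adjusted p = 0.263) and -0.40 without tamibarotene replicate 2 (adjusted p = 0.0512). It also missed the threshold with array weights, with the line fitted alone and with the actin covariate. In the 4 lines where TCN1 was dim in vehicle, the changes lay between -0.39 and 0.15. MV-4-11 was nearest to the threshold, with vehicle arrays at 3.88, 4.06 and 4.07 and tamibarotene arrays at 3.53, 3.65 and 3.65 (adjusted p = 0.0618).

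ARG1 encodes arginase 1, which degrades arginine and is released by neutrophils. It was dim in all vehicle arrays, between 2.49 and 3.02. In Sig-M5 it went from 2.69 and 2.76 to 4.73, 4.85 and 4.88, a change of 2.10 ± 0.13 (SE) or 4.27-fold (adjusted p = 2.15e-13, limma). These 3 arrays stood apart from every other array of the gene, yet remained below the median of all probe sets. In the other 6 lines the changes lay between -0.10 and 0.18 and the groups overlapped in each.

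MMP9 and MMP8 encode secreted metalloproteases: MMP9 (gelatinase B) gives the tertiary granules their other name, and MMP8 is the collagenase of the specific granules. In Sig-M5 the MMP9 arrays went from 4.85 and 5.12 to 3.42, 3.97 and 3.69. The change was -1.29 ± 0.16 (SE), or 2.45-fold lower (adjusted p = 3.26e-07, limma). In OCI-AML3 they went from 4.91, 5.20 and 5.02 to 4.03, 4.22 and 4.12, a change of -0.92 ± 0.14 or 1.89-fold lower (adjusted p = 1.7e-05). The groups did not overlap in either line, which were the 2 with the highest vehicle level of MMP9, and the fall brought them to or below the levels of the other lines. Elsewhere the changes of MMP9 lay between -0.24 and 0.27. All group means of MMP9 lay below the median of all probe sets, so its falls are between dim levels. None of the 4 MMP8 probe sets passed in any line, the lowest adjusted p being 0.0521.

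**Figure D3:**
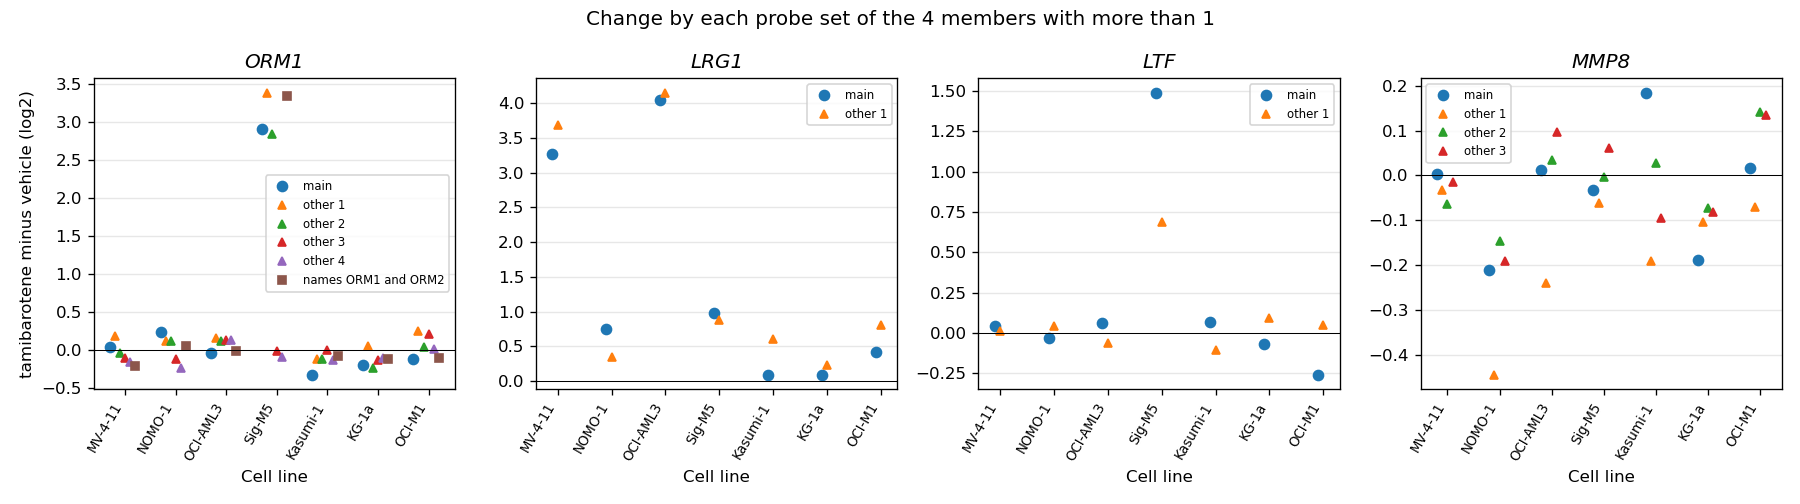
Tamibarotene minus vehicle (log2, vertical axis with its own scale in each panel) in the 7 lines (horizontal axis) by each probe set of the 4 genes that have several; circles are the main probe sets, triangles the others and squares the probe set naming ORM1 and ORM2. In Sig-M5, 3 ORM1 probe sets and the joint one rise by 2.84 to 3.38 while 2 stay near 0, and both LTF probe sets rise, by 1.49 and 0.68.

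Counted by line, Sig-M5 had the most members past the test: 5 of 10 rose and 2 fell, where 8.5% of all genes rose and 18.4% fell. The median member change there was 0.57, against -0.10 over all genes. In OCI-AML3, 2 rose and 2 fell (5.5% and 6.36% of all genes). In MV-4-11, 2 rose and 0 fell (4.32% and 3.4%), and in NOMO-1 likewise 2 and 0 (2.77% and 0.711%). In KG-1a, 1 rose and 0 fell (1.21% and 1.88%), in OCI-M1, 0 rose and 1 fell (0.7% and 0.386%), and in Kasumi-1, 0 rose and 0 fell (0.48% and 2.36%). Outside Sig-M5 the median member change lay between -0.05 and 0.12, close to that of all genes, and the calls there were those of CHI3L1, LRG1, TCN1 and MMP9. In Kasumi-1, where vehicle replicate 2 had a raised actin difference, the 10 changes lay between -0.32 and 0.27, and between -0.40 and 0.34 without that array, again with none past the test. Before adjustment 0 of the 10 had a limma p under 0.05.

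The unweighted mean of the 7 line changes was called upwards for 5 members and downwards for 2, against 6.71% and 12.4% of all genes. For CHI3L1 it was 1.82 ± 0.07 (SE, adjusted p = 1.45e-19, limma) and for LRG1 1.38 ± 0.06 (adjusted p = 8.93e-18); for TCN1 it was -0.54 ± 0.05 (adjusted p = 1.48e-09). These held without Sig-M5. The average calls of ORM1 (0.36), ARG1 (0.33), LTF (0.19) and MMP9 (-0.26) ended without Sig-M5, where the values were -0.06, 0.03, -0.03 and -0.09.

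The lines' responses differed from each other, by a limma F test on 6 degrees of freedom, for 7 of the 10 members, against 27.4% of all genes; CAMP, LCN2 and MMP8 were the others. Each line's change was also set against the mean change of the other 6 lines. For CHI3L1 this difference passed in 7 of 7 lines, against 7.41% of all tests of a gene and a line, and was 3.19 ± 0.20 in Sig-M5 and 1.79 ± 0.18 in MV-4-11 on the higher side and -2.13 ± 0.18 in OCI-M1 and -1.93 ± 0.20 in Kasumi-1 on the lower side. Those of NOMO-1 (-0.74), OCI-AML3 (0.70) and KG-1a (-0.87) were lost with single arrays left out: NOMO-1 at -0.67 without tamibarotene replicate 3 and -0.68 without vehicle replicate 1, OCI-AML3 at 0.61 without vehicle replicate 3, and KG-1a at -0.87 and -0.86 without vehicle replicate 1 or 2. For LRG1, OCI-AML3 stood above the others by 3.12 ± 0.16 (adjusted p = 1e-14) and MV-4-11 by 2.20 ± 0.16.

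In Sig-M5 the same difference was 2.96 ± 0.18 for ORM1, 2.06 ± 0.14 for ARG1 and 1.52 ± 0.11 for LTF, with adjusted p-values of 2.63e-13, 3.69e-12 and 3.89e-11 (limma). The mean change of the other 6 lines was -0.06 for ORM1, 0.03 for ARG1 and -0.03 for LTF. TCN1 fell further than in the other lines in OCI-AML3 (-1.04 ± 0.14) and in OCI-M1 (-0.72 ± 0.14), and MMP9 in Sig-M5 (-1.20 ± 0.17) and OCI-AML3 (-0.77 ± 0.16). These 7 differences kept their call in the alternatives that gave them a value, which for ARG1 and MMP9 leaves out the filter on dim genes. A minimum fold was not applied to them.

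Because 2 Sig-M5 vehicle arrays had a raised actin difference, the members' changes there were set out with each of them left out. Without vehicle replicate 2, which had the higher of the pair, CHI3L1 rose by 4.16, ORM1 by 3.18, ARG1 by 2.13, LTF by 1.44 and LRG1 by 1.27, and the changes of MMP9 and TCN1 were -1.15 and -0.79. Without vehicle replicate 1, CHI3L1 rose by 4.94, ORM1 by 2.62, ARG1 by 2.06, LTF by 1.54 and LRG1 by 0.70. The changes of MMP9 and TCN1 were then -1.43 and -0.27. All 7 changes kept their direction with either array left out. The treated Sig-M5 arrays had actin differences between 0.31 and 0.34, so integrity differed between the arms of this line, and its part in the changes was not tested beyond these settings and the covariate.

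**Figure D4:**
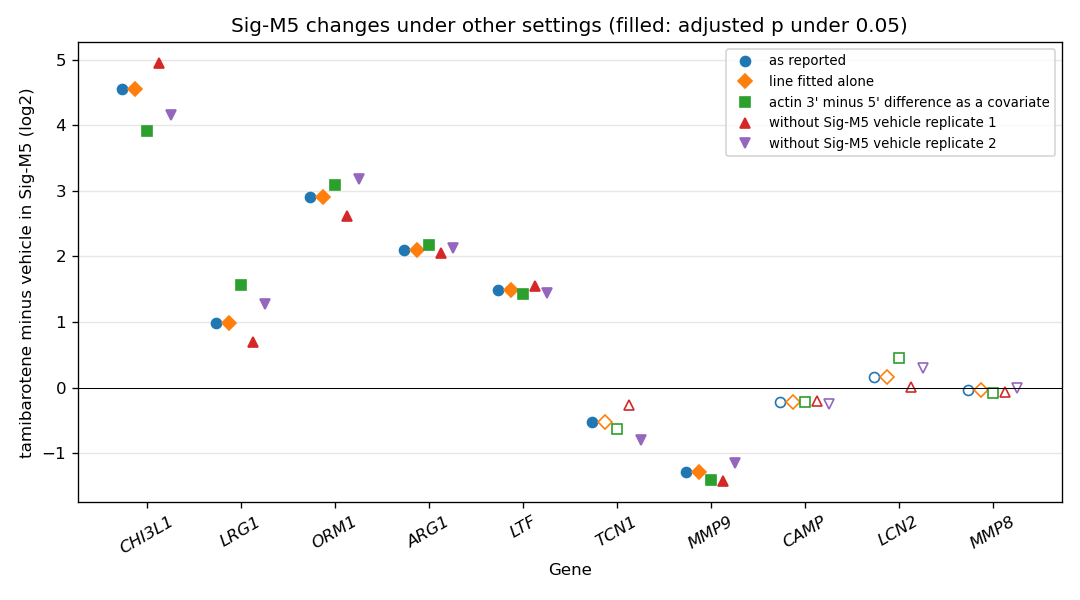
Tamibarotene minus vehicle in Sig-M5 (log2, vertical axis) for each gene (horizontal axis) as reported, with the line fitted alone, with the actin covariate, and without either vehicle array; filled symbols passed at an adjusted p under 0.05. The 5 rises and the fall of MMP9 keep their direction and call, and the fall of TCN1 does so only as reported and without vehicle replicate 2.

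Neutrophil marker genes other than the members did not move one way in Sig-M5. Of 8 neutrophil marker genes, 2 passed upwards and 3 downwards, where 8.5% of all genes rose and 18.4% fell. The median level of the 8 was 4.84 in vehicle and 4.64 with tamibarotene. FCGR3B stood at 3.25 and 3.42, CSF3R at 7.97 and 8.64, CXCR2 at 7.18 and 7.49 and CXCR1 at 4.55 and 4.14. Of 6 monocyte markers, 1 passed upwards and 3 downwards (8.5% and 18.4% of all genes), with CD14 at 6.18 in vehicle and 5.34 with tamibarotene. The part of these in the members' changes was not tested.

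The list of other granule genes held 30 genes of secondary, tertiary and secretory granules or vesicles, read beside the members. Of these, FPR1 is also among the neutrophil markers above and FCN1 among the monocyte markers. In Sig-M5, 10 of the 30 passed upwards and 7 downwards, against 8.5% and 18.4% of all genes, with a median change of -0.01. After ORM2, the smallest adjusted p-values there were those of TNFAIP6, a hyaluronan-binding granule protein, and CD24, a surface glycoprotein. They rose by 2.06 ± 0.15 and 2.06 ± 0.16 (adjusted p = 4.74e-12 and 3.48e-11, limma). Haptoglobin (HP), another acute-phase protein of specific granules, fell by 0.57 in Sig-M5 but rose by 0.99 in OCI-AML3, from 5.28 to 6.28. In OCI-AML3, 5 of the 30 passed upwards and 4 downwards (5.5% and 6.36% of all genes). In the 5 other lines at most 3 passed in either direction, where at most 4.32% of all genes rose and at most 3.4% fell.

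Of 17 measured regulators of granule genes, 4 passed upwards and 2 downwards in Sig-M5, against 8.5% and 18.4% of all genes. In OCI-AML3, 2 passed upwards and 3 downwards (5.5% and 6.36%). CEBPE, the gene of C/EBP epsilon, passed in no line, also before adjustment. Its vehicle mean was 9.90 in Kasumi-1, 9.86 in Sig-M5 and 8.80 in NOMO-1 and between 5.11 and 5.70 in the other 4 lines, and in Sig-M5 the change was 0.44 ± 0.22 (adjusted p = 0.15). No member passed the test in Kasumi-1, and the part of any of these regulators in the members' changes was not tested. CEBPB, a related factor, rose in MV-4-11 (1.12 ± 0.14), Sig-M5 (0.94 ± 0.16), KG-1a (0.72 ± 0.16) and NOMO-1 (0.61 ± 0.14), which are 4 of the 5 lines in which CHI3L1 rose. In OCI-AML3, the other, its change was 0.00 ± 0.14. VDR, the vitamin D receptor and a regulator of CAMP, fell by 1.35 in Sig-M5 and by 0.96 in OCI-AML3. It rose by 0.93 in OCI-M1 and by 0.76 in KG-1a.

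Of 18 partners and inhibitors of the member proteins, 2 passed upwards and 9 downwards in Sig-M5, against 8.5% and 18.4% of all genes. TIMP1, which inhibits MMP9, rose there by 0.48 ± 0.09 while MMP9 fell, and in OCI-AML3 by 0.24 ± 0.08 (adjusted p = 7.12e-05 and 0.0388, limma). TIMP2, another metalloprotease inhibitor, fell in Sig-M5 by 0.74 ± 0.18 (adjusted p = 0.00213, limma). CD320, the receptor for transcobalamin, a B12 carrier other than the TCN1 protein, fell by 0.71 in both Sig-M5 and OCI-AML3, in which TCN1 also fell. In OCI-M1, where the TCN1 change was -1.16, none of the 18 passed downwards, against 0.386% of all genes. PTGDR2, named as a receptor of CHI3L1, rose by 2.52 ± 0.13 in OCI-AML3, from 5.34 to 7.86.

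Over the 14 group means, the genes whose pattern was most like that of CHI3L1 were DOCK5, CACNA2D4 and CAPG, with Pearson correlations of 0.94, 0.93 and 0.91. For ORM1 they were PADI4 (0.99), DEFA4 (0.98) and SLC5A3 (0.95), and for LRG1 TBL2, SLC25A35 and PSMB10 (0.93, 0.91 and 0.89). LTF and ARG1 shared GPR82 (0.96 for each) and CIP2A (0.96 and 0.90), and LTF itself was the second closest gene to ARG1 (0.96). Both genes entered this comparison only through the tamibarotene group of Sig-M5 (5.34 for LTF and 4.82 for ARG1), as their vehicle means span 0.61 and 0.26. That group therefore sets these correlations. For TCN1 they were MORN4 (0.90), ALDH1A1 (0.88) and ITSN1 (0.87). For CAMP, where the pattern is a high level in NOMO-1, the correlations of ST6GALNAC2, OVOL1 and FCN1 were 0.98 to 0.99. The 14 points are both arms of the same 7 lines, and these were the highest among 5311 candidate genes, so the correlations only describe likeness in these arrays.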

How the data were processed

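The authors deposited log2 intensities of 49395 probe sets on 39 arrays. The submitters' processing notes name RMA and the affy package, without a version and without stating if the arrays were processed as a single set. RMA draws dim values together, so folds of dim genes are likely too small. No further normalization was applied. Probe sets were named from the platform annotation: 44988 named 1 symbol, 1832 several, 2473 none, and 102 were controls.

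One limma 3.58.1 model (R 4.3.3, lmFit and eBayes without trend, 25 residual degrees of freedom) gave every combination of line and arm (14 groups) its own mean, with Benjamini-Hochberg adjustment of the p-values over 18132 genes. Errors are standard errors of the fit, and the spread is pooled over all groups. The number of arrays limits the precision. The model was tested on simulated data. Tables were handled with the R package data.table (version 1.17.8) and plots drawn with matplotlib 3.10.9.

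The members, the lists and the tests were chosen with earlier results of these arrays known. From the other lists, the genes named are up to 4 a list with the smallest adjusted p in the average and up to 3 in each line where a member was called; CEBPE, CEBPB in OCI-AML3, HP in Sig-M5 and TIMP1 in OCI-AML3 were added after their values were seen. The genes of like pattern are the 3 with the highest correlation for each member whose group means span at least 2. The highest correlation between arrays of a group was 0.998, so none was a copy.

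Arms of a line share replicate numbers. The deviations of same-numbered arrays correlated in several lines, which comes from the data and not the labels. The pairs ran from 0.118 to 0.371 in OCI-M1, 0.10 to 0.67 in MV-4-11, 0.01 to 0.57 in NOMO-1 and -0.04 to 0.46 in OCI-AML3. In Sig-M5, Kasumi-1 and KG-1a they lay between -0.17 and 0.12. The main model leaves this sharing out, and the replicate block named below takes it in. Alternatives were other probe set rules, quantile normalization, array weights, other eBayes settings, a filter on dim genes, single-line fits, a replicate block, the actin covariate, a minimum fold, lines left out and each array left out; 1 more, leaving out Sig-M5 and Kasumi-1 vehicle replicates 2, was chosen after seeing the data.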

Additional observations from a re-analysis of the deposited data

Results flagged for a closer look

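The responses of the 7 lines differed by the limma F test on 6 degrees of freedom for 7 of the 10 genes. F was 110 for LRG1, 89.4 for CHI3L1, 46.3 for ORM1, 36.6 for ARG1, 30.6 for LTF, 18.0 for TCN1 and 15.5 for MMP9, with the highest adjusted p at 2.15e-06 for MMP9. Without Kasumi-1 and Sig-M5, the tests of ORM1 (F = 1.57), ARG1 (1.09) and LTF (2.37) no longer passed, and those of the other 4 genes did.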

How the results depend on the processing

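Of 24 changes that passed in a line or the average, 18 passed with the same sign in each setting that gave them a value, with single arrays left out included, and 52 of 56 that did not pass never did. These counts leave out the minimum change, applied only to counts of members, and the filter on dim genes gave no value for ARG1, LCN2, MMP8 and MMP9. In the 7 lines and the average, counts of members called kept within 1.5 times with any array left out, except that those called lower in Sig-M5 were 1 to 2. Members called lower in MV-4-11 became 1 (TCN1) with array weights, without the dimmest genes, with the replicate block and without both arrays of highest actin difference. Those called higher in NOMO-1 became 1 with the line fitted alone and with a minimum log2 change of 1, in OCI-AML3 4 with array weights (ARG1 at 0.26 and LTF at 0.17 were added), and in OCI-M1 1 (LRG1) with the actin covariate or all probe sets averaged. Those called lower became 1 in OCI-AML3 without the dimmest genes or with the minimum change, and 1 in Sig-M5 in both these settings and with array weights, the line fitted alone and the actin covariate. For the average, those called higher became 2 with the minimum change, without Sig-M5 and without both it and Kasumi-1, and those called lower became 1 without the dimmest genes and in both settings without lines, and 0 with the minimum change. Members with differing responses became 4 without Kasumi-1 and Sig-M5. The dim filter left out genes with every group mean under 5.11; other causes were not tested.

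Signs turned for the average of LTF (-0.030) and ORM1 (-0.061) without Sig-M5 and with Kasumi-1 left out too (-0.050 and -0.0091), for LRG1 in vehicle between Kasumi-1 and OCI-AML3 with all probe sets averaged (-0.42), and between Sig-M5 and KG-1a with the actin covariate (-0.60). With the replicate block, the fall of TCN1 in OCI-M1 was -1.16 (adjusted p = 7.29e-06, limma), and apart from TCN1 in MV-4-11 the block changed no line or average call. Vehicle arrays number 2 in 3 lines, and dim signals limit LTF, ARG1, LCN2, MMP8 and MMP9.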
